A study of Mus musculus with 9 samples.

Results

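The liver secretes most of the proteins of blood plasma, and 10 of their genes were followed in mouse fibroblasts: Afp, Alb, Kng1, Ambp, Ttr, Apoa1, Fga, Fgb, Fgg and Trf. A probeset, the set of short probes that reads a transcript on the array, was taken where its only annotated gene symbol was one of these. The rule gave 20 probesets of 9 genes, out of 45037 probesets and 18193 genes in all. The 1 probeset that names Trf, the gene of the iron carrier transferrin, also names another gene, so Trf has no value here. The genes had been chosen by measured values, namely because Afp was raised in one transfected line and Kng1 differed between the lines, so the values of Afp and Kng1 are given as a description without a test.

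RNA was hybridized to Affymetrix mouse genome arrays from Balb/c-3T3 cells, an immortalized fibroblast line of BALB/c mouse embryos, in 3 groups of 3 arrays. The v-Src group (arrays 1, 5 and 6) carries a stably transfected pMvSrc plasmid encoding v-Src, the transforming tyrosine kinase that Rous sarcoma virus carries, which activates STAT3 and other pathways. The STAT3-C group (arrays 1, 2 and 3) carries pRc/CMV-STAT3C, which encodes a constitutively active STAT3 behind a viral promoter. The control group (arrays 1, 2 and 3) is the same cells without either gene. All 3 lines shared one medium with bovine calf serum, and each array holds RNA of 5 pooled dishes of 1 passage. Each group is thus 1 stable line, and p-values cover how passages vary, not how independent clones would.

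Alpha-fetoprotein (Afp) and albumin (Alb) belong to one gene family and lie side by side. Afp is the main serum protein of the mouse fetus, made by yolk sac and fetal liver and shut down in the liver after birth, when albumin takes its place, and it returns in some liver and germ cell tumours. Kininogen-1 (Kng1) is the precursor of the vasoactive peptide bradykinin, Ambp encodes alpha-1-microglobulin together with bikunin, transthyretin (Ttr) carries thyroxine and retinol-binding protein, apolipoprotein A-I (Apoa1) is the main protein of high-density lipoprotein, and Fga, Fgb and Fgg encode the chains of fibrinogen. In hepatocytes these genes depend on transcription factors of the HNF and C/EBP families, and the fibrinogen genes are classical targets of interleukin-6 acting through STAT3.

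The promoters of Afp, Alb, Fga and Fgb are shown because Afp moved while its neighbour Alb and the fibrinogen genes did not follow it. They were picked after motif matches were seen. Each is the 250 bases before the annotated start, from RefSeq on GRCm38.p6, and capitals mark motif matches.
Afp, chr5:90490464-90490713, + strand: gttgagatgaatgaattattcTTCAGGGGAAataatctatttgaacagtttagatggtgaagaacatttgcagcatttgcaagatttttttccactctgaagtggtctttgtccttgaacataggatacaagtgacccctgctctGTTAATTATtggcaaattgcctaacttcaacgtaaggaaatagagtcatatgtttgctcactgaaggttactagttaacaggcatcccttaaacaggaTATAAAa
Alb, chr5:90460620-90460869, + strand: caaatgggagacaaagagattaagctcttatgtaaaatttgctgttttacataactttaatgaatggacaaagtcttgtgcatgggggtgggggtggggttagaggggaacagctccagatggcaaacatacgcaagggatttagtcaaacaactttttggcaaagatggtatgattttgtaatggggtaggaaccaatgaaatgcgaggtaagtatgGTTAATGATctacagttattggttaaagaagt
Fga, chr3:83025903-83026152, + strand: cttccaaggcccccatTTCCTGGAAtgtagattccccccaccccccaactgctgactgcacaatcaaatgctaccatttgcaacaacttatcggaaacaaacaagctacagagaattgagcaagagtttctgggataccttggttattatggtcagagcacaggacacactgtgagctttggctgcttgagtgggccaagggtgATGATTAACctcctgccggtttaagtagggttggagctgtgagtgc
Fgb, chr3:83049864-83050113, - strand: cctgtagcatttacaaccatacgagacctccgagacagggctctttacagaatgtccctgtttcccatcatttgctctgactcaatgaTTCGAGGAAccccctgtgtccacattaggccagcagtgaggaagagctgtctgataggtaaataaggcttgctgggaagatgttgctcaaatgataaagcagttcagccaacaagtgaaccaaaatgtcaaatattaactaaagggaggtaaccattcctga

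The motifs were searched on both strands. The STAT motif TTCNNNGAA stood in Fga, from base 234 to 226 before the start, and in Fgb, from base 162 to 154, and 7.02% of the 32851 promoter windows of the table hold it. Its form with a spacer longer by 1 base stood in Afp, from base 229 to 220, and is held by 5.85% of windows. Part of the HNF1 motif, GTTAATNAT, stood in Afp, Alb and Fga (0.737% of windows). TATAAA stood in Afp, from base 7 to 2, directly before the annotated start (12.4% of windows hold it anywhere). The HNF1 letters and TATAAA were added after the Afp and Alb sequences had been looked at. Of the member genes, 7 were searched, and Ambp, Apoa1 and Fgg held none of these letters in the window. Kng1 and Trf had no promoter window to search, and Ttr was left out, so nothing is known here of their motifs.

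The values are RMA expression on the log2 scale, as deposited. Array medians ran over 6.27 to 6.39, and lower quartiles over 5.07 to 5.16. The Pearson correlation of arrays within a line was 0.990 to 0.995, and that of control arrays with those of the transfected lines 0.943 to 0.948. Each comparison was fitted by limma on its 6 arrays over all probesets. A probeset is named as called where its p, adjusted by Benjamini-Hochberg, was under 0.05 and its fold reached 1.5. For Afp and Kng1 a call only marks this threshold and is not a test. As a check of the labels, 2 of the 4 Stat3 probesets, 1426587_a_at and 1460700_at, were called higher with v-Src (log2 fold changes 1.53 and 1.30) and 1460700_at was called higher with STAT3-C (0.72), whereas neither Src probeset was called higher in v-Src cells. Whether these probesets read the transfected genes is not known. The study's own sources do not all head the v-Src and STAT3-C columns the same way round. Its main list of over-expressed probesets goes the same way as the sample labels but does not hold Afp. The supplementary list that holds Afp heads them opposite to the sample labels. The lines are named here as the sample labels name them, and every value below that is given to one transfected line rests on those labels, which the Src and Stat3 probesets do not settle.

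Afp was high on the arrays labelled STAT3-C and low in the other lines. Probeset 1416645_a_at stood at 4.35, 6.04 and 5.48 on v-Src arrays 1, 5 and 6, at 10.50, 10.17 and 10.50 on STAT3-C arrays 1, 2 and 3, and at 4.03, 4.32 and 4.41 on control arrays 1, 2 and 3. The STAT3-C arrays stood apart from all others, by 5.76 from the nearest control array and by 4.13 from the nearest v-Src array, while v-Src and control arrays overlapped. The log2 fold change was 6.14 (standard error 0.14) for STAT3-C against control, a 70.5-fold difference. It was 1.04 (standard error 0.39) for v-Src against control and -5.10 (standard error 0.38) for v-Src against STAT3-C. The study lists Afp among the probesets that its SAM found over-expressed in both lines. Here Afp was not called for v-Src against control. On this probeset the overlap came from v-Src array 1 alone, at 4.35 beside 4.41 on control array 3. The median control array had this probeset at the 11.2 percentile of its own values and the median STAT3-C array at the 94.8 percentile. No detection call was used, so folds against so low a control level, for Kng1 too, may be lower bounds. In such bulk RNA, a few cells with much Afp and many cells with little cannot be told apart.

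A pair of other Afp probesets gave the same picture. Probeset 1416646_at stood at 5.20, 5.81 and 5.51 on the v-Src arrays, at 9.40, 8.96 and 9.59 on the STAT3-C arrays, and at 4.95, 4.96 and 5.47 on the control arrays. Probeset 1436879_x_at stood at 4.56, 5.36 and 5.36 on the v-Src arrays, at 10.04, 9.70 and 10.05 on the STAT3-C arrays, and at 4.61, 5.63 and 4.72 on the control arrays. Again only the STAT3-C arrays were high, and the v-Src and control arrays overlapped. Their log2 fold changes for STAT3-C against control were 4.19 (standard error 0.20) and 4.94 (standard error 0.25), or 18.3-fold and 30.7-fold. Over the 9 arrays these 3 probesets correlated at 0.983 to 0.992, in values that share the same arrays.

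The remaining Afp probesets, 1436880_at and 1436881_x_at, both annotated to one sequence record, stayed low on every array. The first stood at 5.77, 5.79 and 5.75 with v-Src, at 5.71, 5.47 and 5.75 with STAT3-C, and at 5.88, 5.91 and 5.54 in control cells, and the lines overlapped. The second stood at 5.10, 5.34 and 5.15 with v-Src, at 5.28, 5.31 and 5.45 with STAT3-C, and at 5.08, 4.82 and 5.02 in control cells. On this probeset the control arrays lay below those of both transfected lines, and the log2 fold change for STAT3-C against control was 0.37 (standard error 0.10). The Afp probesets therefore disagreed on the size of the difference by more than their errors.

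**Figure D1:**
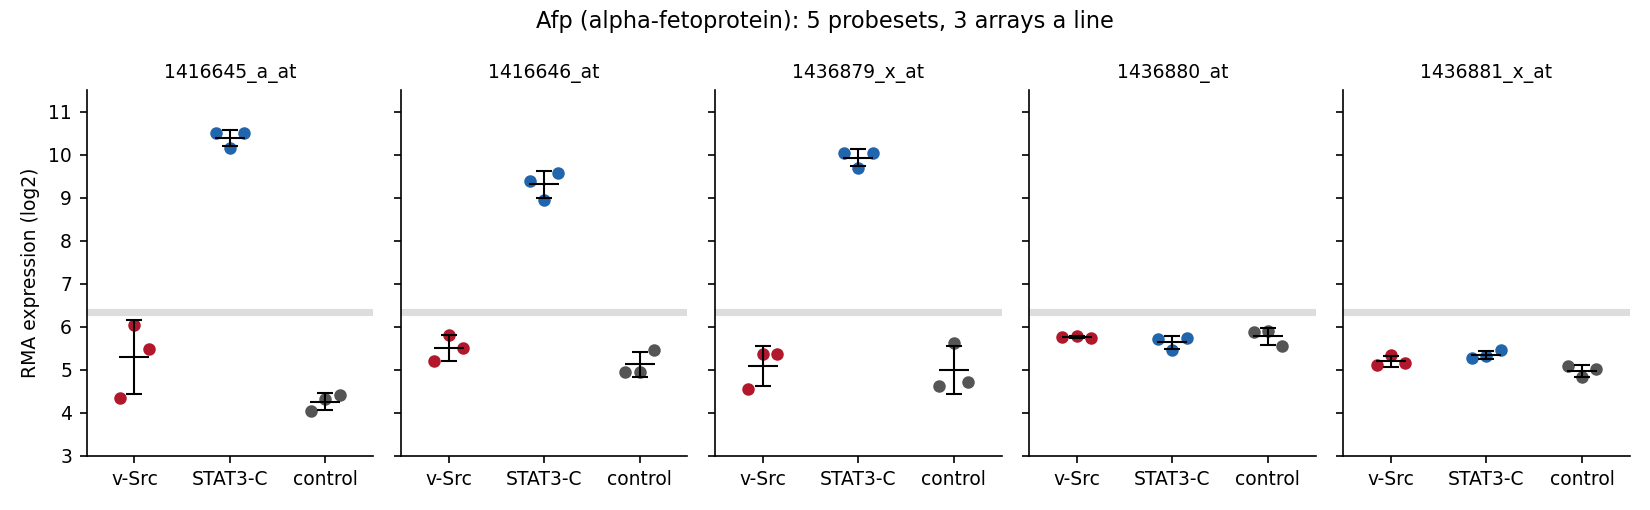
RMA expression (log2, y axis) of the 5 Afp probesets on each array of the v-Src, STAT3-C and control lines, with 1 point an array, the mean and 1 SD; the grey band is the range of array medians. STAT3-C arrays lie between 8.96 and 10.50 on 3 probesets, above every v-Src and control array, and all lines lie below the band on the other 2.

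Kng1 showed another order of the lines, with v-Src highest. Probeset 1416676_at stood at 10.26, 9.14 and 9.51 on v-Src arrays 1, 5 and 6, at 6.46, 5.89 and 5.28 on STAT3-C arrays 1, 2 and 3, and at 5.12, 4.79 and 4.79 on control arrays 1, 2 and 3. No lines overlapped, although the lowest STAT3-C array lay only 0.16 above the highest control array. The log2 fold change was 4.74 (standard error 0.27), or 26.6-fold, for v-Src against control and 0.98 (standard error 0.26) for STAT3-C against it. Between the transfected lines it was 3.76 (standard error 0.36), or 13.5-fold. The second probeset, 1426045_at, stood at 7.67, 6.77 and 7.08 with v-Src, at 6.21, 6.14 and 6.17 with STAT3-C, and at 5.79, 5.93 and 5.70 in control cells. The order of the lines was the same, with smaller log2 fold changes of 1.37 (standard error 0.21), 0.37 (standard error 0.09) and 1.00 (standard error 0.21) in the 3 comparisons. The 2 probesets correlated at 0.961 over the 9 arrays. Kng1 lies on chromosome 16, apart from Afp and Alb on chromosome 5.

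The other 7 genes, with 13 probesets, were mostly not called. They were listed with earlier results of these data known, so their tests are not independent of the choice. Against control, 1 of the 13 was called with v-Src and none with STAT3-C, and none was called between the transfected lines. Their median log2 fold change was -0.03 for v-Src against control, beside 0.03 over all probesets, and 0.07 for STAT3-C against control, beside 0.02. It was -0.14 for v-Src against STAT3-C, beside 0.00214. For STAT3-C against control, limma had 2 of the 13 at an unadjusted p under 0.05, one of Apoa1 and one of Fgg, and for v-Src against STAT3-C 1, of Fgg. SAM, the kind of test the study used, was run again here at a q under 5% and a fold of 1.5. It called none of the 13 in these comparisons.

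Albumin was the gene called. Alb probeset 1425260_at stood at 5.94, 5.94 and 5.73 on the v-Src arrays, at 6.02, 6.03 and 6.49 on the STAT3-C arrays, and at 6.44, 6.68 and 6.38 on the control arrays. All v-Src arrays lay below all control arrays, while STAT3-C and control arrays overlapped. In v-Src cells its log2 level fell by 0.63 (standard error 0.11, adjusted p = 0.00491 from limma), a 1.54-fold difference just past the threshold. It fell below the fold threshold without v-Src array 6 (log2 fold change -0.56, limma adjusted p = 0.0209) or without control array 2 (-0.53, limma adjusted p = 0.0119). With STAT3-C, Alb had a log2 fold change of -0.32 (standard error 0.15, adjusted p = 0.159 from limma). These levels lie near the array median or below it.

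The fibrinogen chains stayed low in all lines. Fga (1424279_at) stood at 4.52, 4.48 and 4.39 with v-Src, at 4.36, 4.28 and 4.49 with STAT3-C, and at 4.36, 4.35 and 4.21 in control cells. Fgb (1428079_at) averaged 4.77, 4.87 and 4.89 in v-Src, STAT3-C and control cells, with all 9 arrays between 4.55 and 5.12. The lines overlapped on Fgb, and on Fga they were separated only between v-Src and control, by 0.03. Fgg (1416025_at) stood at 4.25, 4.33 and 4.39 with v-Src, at 4.59, 4.58 and 4.63 with STAT3-C, and at 4.14, 4.38 and 4.16 in control cells, so that the STAT3-C arrays lay above both other lines. Its log2 fold change was 0.37 for STAT3-C against control (standard error 0.10, adjusted p = 0.0228 from limma) and -0.28 for v-Src against STAT3-C (standard error 0.07, adjusted p = 0.0377 from limma), both under a fold of 1.5. All Fga, Fgb and Fgg values lay below the array medians.

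The carrier protein genes differed by less than a fold of 1.5. Apoa1 has 4 probesets, of which 1419233_x_at stood highest, at 6.06, 6.13 and 6.10 with v-Src, at 6.45, 6.11 and 6.36 with STAT3-C, and at 5.999, 5.84 and 5.92 in control cells. Both transfected lines lay above control cells on it, with log2 fold changes of 0.18 (standard error 0.08, limma adjusted p = 0.129) for v-Src and 0.38 (standard error 0.11, limma adjusted p = 0.035) for STAT3-C. The other 3 Apoa1 probesets overlapped between the lines in each comparison. Ttr was the only member with a probeset above the median of every array, 1451580_a_at, which stood at 7.71, 7.52 and 7.67 with v-Src, at 7.78, 7.69 and 7.86 with STAT3-C, and at 7.60, 7.72 and 7.52 in control cells. Its other 3 probesets lay between 3.47 and 4.07 on all 9 arrays. Ambp (1416649_at) lay between 5.09 and 5.51 on all 9 arrays, and the lines overlapped.

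**Figure D2:**
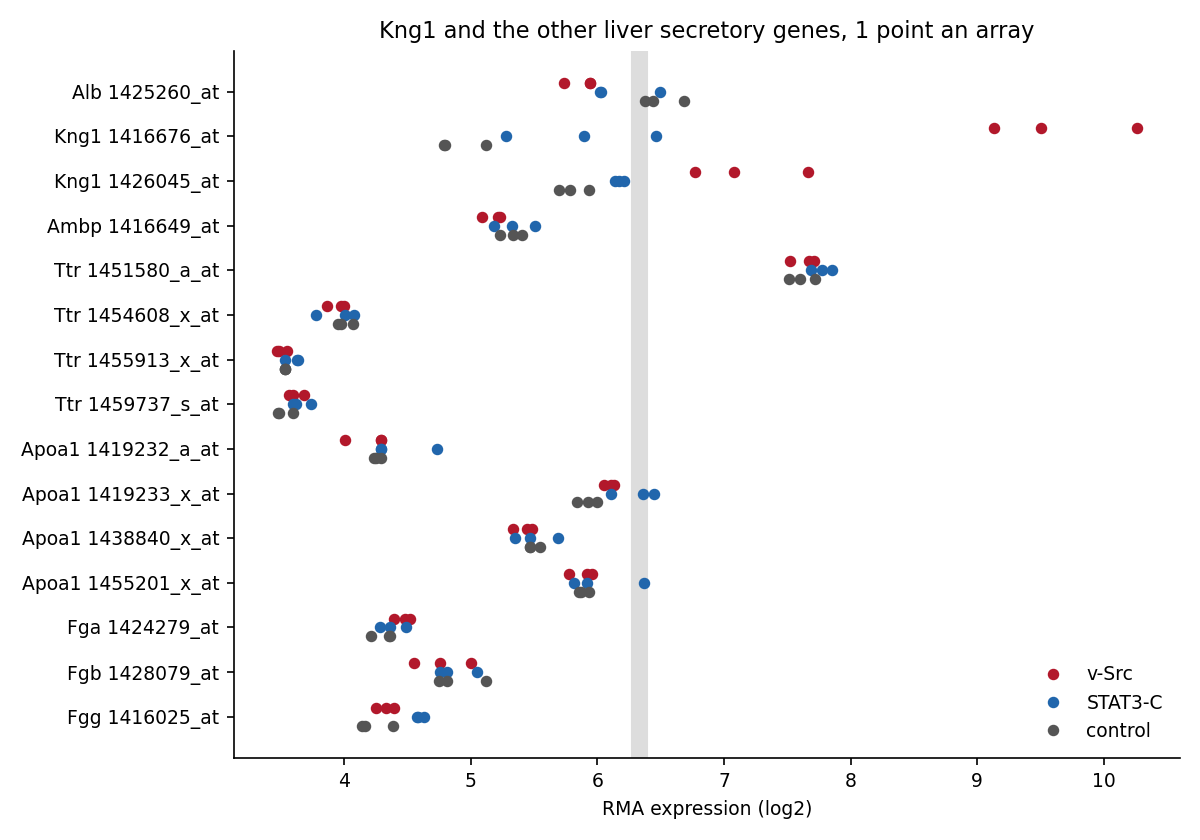
RMA expression (log2, x axis) of Kng1 and the other 7 genes with a probeset, 1 row a probeset and 1 point an array, with v-Src above STAT3-C above control in each row; the grey band is the range of array medians. Kng1 separates the lines, with v-Src at 6.77 or above on both probesets, and of the others Alb alone was called, lower with v-Src.

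Over all 20 probesets, 2 were called higher for v-Src against control (both Kng1) and 1 lower (Alb), where 8.75% of all probesets were called higher and 8.1% lower. For STAT3-C against control 4 were called higher (3 of Afp and 1 of Kng1) and none lower, beside 9.68% and 8.58% of all probesets. For v-Src against STAT3-C 2 were called higher (Kng1) and 3 lower (Afp), beside 4.99% and 5.33%. Nothing is read from the counts of Afp and Kng1, which the choice of genes fixed and which are not a test. Against the 16.8%, 18.3% and 10.3% of all probesets called in either direction in the 3 comparisons, the other genes had 1, 0 and 0 of 13 called. Of the 20 probesets, 12 lay below the median of their array on all 9 arrays.

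**Figure D3:**
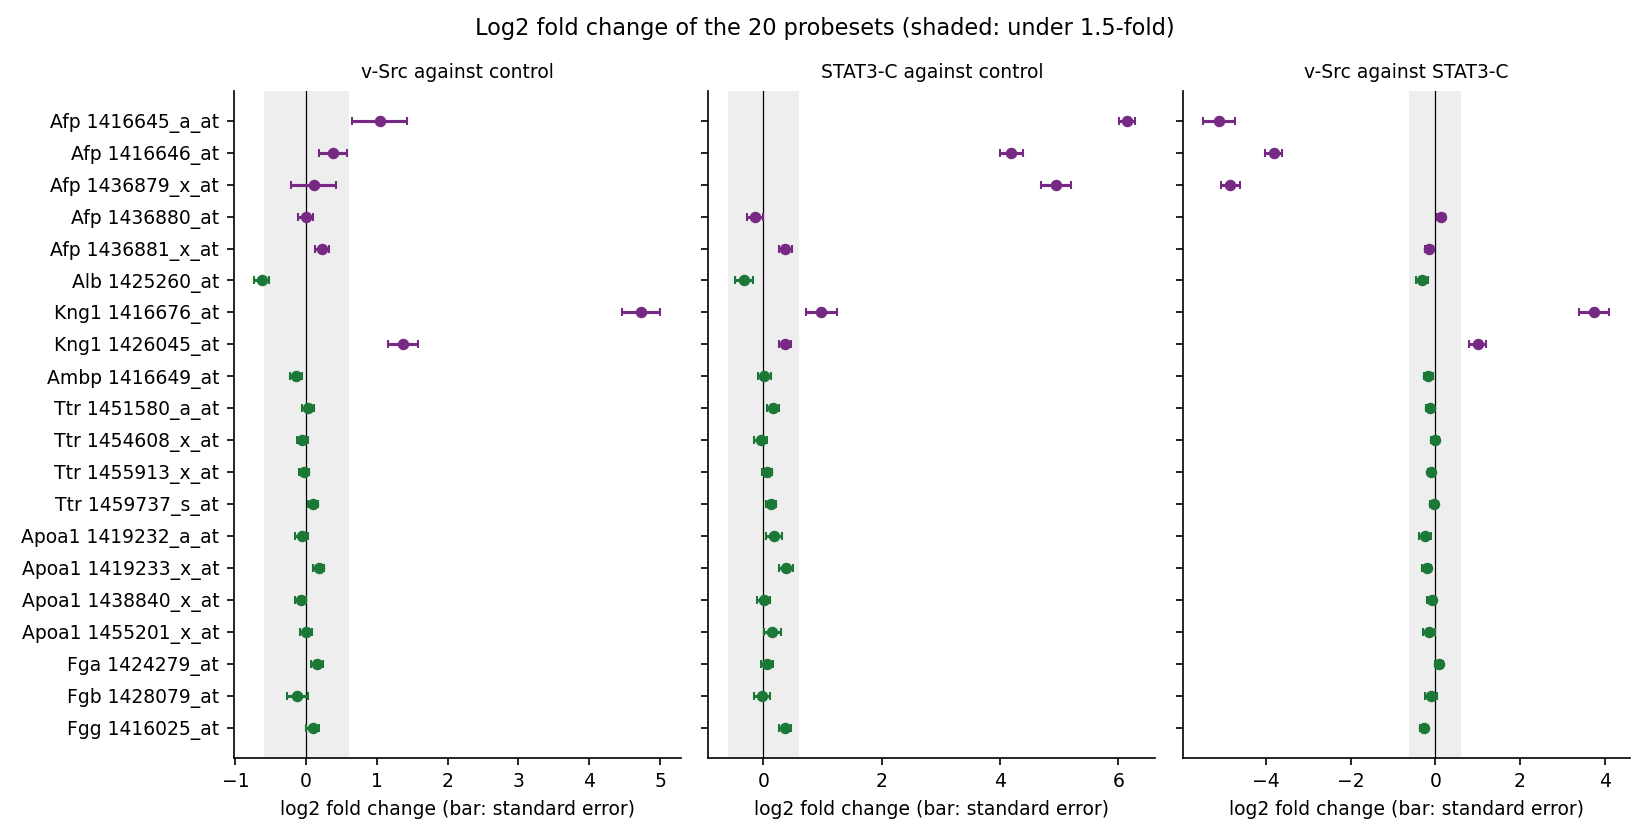
Log2 fold change (x axis, with the standard error from limma) of the 20 probesets in the 3 comparisons, 1 panel each; Afp and Kng1, chosen for their differences, are in purple and the other genes in green, and the shaded band is a fold under 1.5. Outside the band lie Afp and Kng1 probesets and Alb at -0.63 with v-Src.

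Afp and Alb lie beside each other on chromosome 5, at 90490714 to 90508907 for Afp and 90460870 to 90476602 for Alb on GRCm38.p6. The nearest 3 genes with a probeset on each side were read with them. Afm, which encodes afamin, the vitamin E-binding member of the albumin family, had log2 fold changes of 0.20 for v-Src and 0.38 for STAT3-C against control and was not called. Albfm1, annotated as a further member of the family, stood at 7.85, 7.68 and 7.48 with v-Src, at 8.65, 8.49 and 9.04 with STAT3-C, and at 6.83, 6.86 and 7.02 in control cells. It rose with both, by 0.77 (standard error 0.11, adjusted p = 0.0022 from limma) and 1.83 (standard error 0.15, adjusted p = 6.96e-05 from limma), and was lower with v-Src than with STAT3-C (log2 fold change -1.06, adjusted p = 0.00433 from limma). Gm9958, a predicted gene before Alb, rose by 1.59 in v-Src cells and 0.59 in STAT3-C cells; the second call was lost without control array 2 (0.56) or 3 (0.54), without STAT3-C array 1 (0.58) or 3 (0.56), and after quantile normalization (0.57) or median centring (0.54). Rassf6 fell in both lines, by 1.42 and 1.15, Ankrd17 was not called, and Cox18 was called lower with STAT3-C alone (log2 fold change -0.63), a call lost without control array 3 (-0.54) or STAT3-C array 2 (-0.57) and gained with v-Src without control array 1 (-0.60). The cluster thus held genes that were higher, lower and not called.

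Around Kng1 on chromosome 16 lie other genes of the cystatin superfamily. Fetub, which encodes the protease inhibitor fetuin-B, stood at 9.21, 8.82 and 9.30 with v-Src, at 7.42, 7.42 and 7.25 with STAT3-C, and at 5.37, 5.97 and 5.48 in control cells. The lines did not overlap, in the order seen for Kng1. In v-Src cells Fetub rose by 3.50 (standard error 0.19, limma adjusted p = 3.28e-05), in STAT3-C cells it rose by 1.76 (standard error 0.16, limma adjusted p = 0.000125), and it was 1.74 higher with v-Src than with STAT3-C (standard error 0.13, adjusted p = 0.000494 from limma). Ahsg (fetuin-A) and Hrg (histidine-rich glycoprotein), its neighbours on either side, were not called, with log2 fold changes of -0.30 and 0.26 for v-Src against control. On the far side Eif4a2, a translation initiation helicase, fell in both lines by 1.09 and 1.26, Rfc4, a clamp loader subunit of DNA replication, had -0.07 with v-Src and rose by 1.66 with STAT3-C, and Adipoq (adiponectin) was not called.

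**Figure D4:**
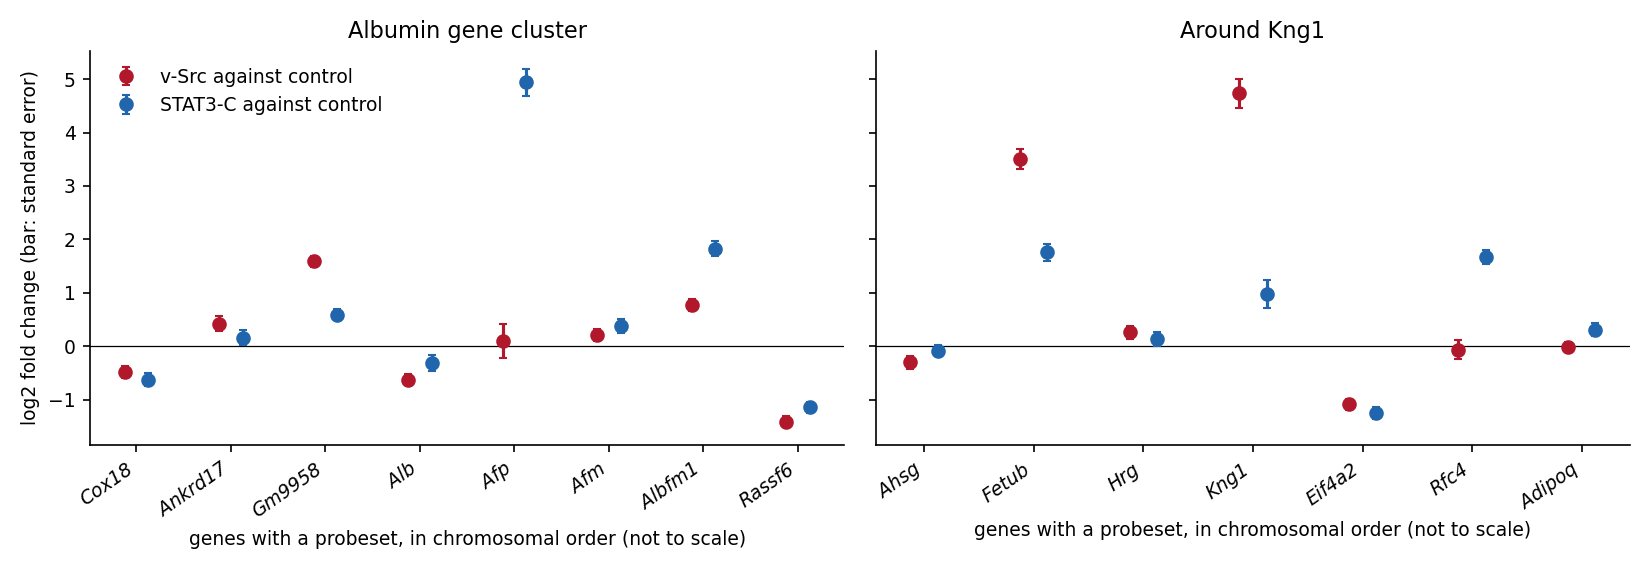
Log2 fold change (y axis, with the standard error from limma) against control in v-Src and STAT3-C cells for the genes around Afp and Alb (left) and around Kng1 (right), in chromosomal order and not to scale; each gene is shown by its probeset with the highest mean, which for Afp is 1436879_x_at. Afp at 4.94 with STAT3-C stands beside Alb at -0.32 and Afm at 0.38, and Kng1 at 4.74 with v-Src stands near Fetub at 3.50.

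The neighbours of the other members included called genes. Next to Ambp, Rgs3 rose by 1.06 with v-Src. Next to Ttr, B4galt6 fell by 1.22 in v-Src cells and 1.92 in STAT3-C cells, and Trappc8 rose by 0.80 and 0.88. Near Apoa1, Sidt2 fell by 0.95 and 0.69, while Sik3 was called higher with STAT3-C at 0.59, a call lost without control array 1 (0.51) or STAT3-C array 2 (0.55) or 3 (0.57), and after quantile normalization (0.58) or median centring (0.54). Near the fibrinogen genes, Sfrp2, a secreted WNT antagonist, fell by 6.65 and 6.59. Plrg1, a splicing factor, was called higher with STAT3-C at 0.63, a call lost without control array 2 (0.54) and after quantile normalization (0.54) or median centring (0.58), and with v-Src it was 0.50, called without control array 3 (0.62). Of 42 neighbour genes, the 5 members that neighbour another member being left out, v-Src cells had 5 higher and 5 lower, beside 9.54% and 10.4% of all genes, and STAT3-C cells had 7 higher and 6 lower, beside 11.9% and 10.3%. Between the transfected lines 4 were higher and 2 lower, beside 4.84% and 6.83%.

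Of 42 other measured plasma protein genes of the liver (apolipoproteins, clotting factors, inhibitors and carriers), 36 were called in no comparison, where 68.7% of all genes were. With v-Src 6 were higher and with STAT3-C 3, beside 9.54% and 11.9% of all genes, and none was lower, beside 10.4% and 10.3%. At an unadjusted p under 0.05, limma had 10 higher and 1 lower in v-Src cells and 12 higher and 0 lower in STAT3-C cells, and SAM called 0 lower. The medians of the list were 0.07 and 0.12 on the log2 scale, beside 0.02 and 0.04 over all genes. Haptoglobin (Hp), which binds free hemoglobin, stood at 12.32, 12.03 and 11.65 with v-Src, at 10.34, 9.99 and 8.36 with STAT3-C, and at 6.03, 6.24 and 6.41 in control cells. No lines overlapped, and STAT3-C array 3 was lower than the other STAT3-C arrays. Hp rose by 5.77 (standard error 0.18) in v-Src and 3.34 (standard error 0.44) in STAT3-C cells, and was 2.44 higher with v-Src than with STAT3-C (standard error 0.47, adjusted p = 0.0118 from limma), a call lost without v-Src array 1 (2.27, limma adjusted p = 0.0501). Ceruloplasmin (Cp), the copper-carrying oxidase, stood at 12.83, 12.34 and 12.48 with v-Src, at 11.25, 11.16 and 10.51 with STAT3-C, and at 10.65, 10.81 and 10.78 in control cells. It rose by 1.80 in v-Src cells, whereas STAT3-C arrays overlapped those of control cells.

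Among the rest of these genes, coagulation factor V (F5) rose by 1.52 in v-Src cells, and its log2 fold change in STAT3-C cells was 0.18. Itih2, a heavy chain that pairs with the bikunin encoded by Ambp, rose by 1.36 in v-Src cells and 0.64 in STAT3-C cells, and its difference of 0.73 between the transfected lines was lost without v-Src array 1 (0.58) or 6 (0.70) or STAT3-C array 1 (0.72). Protein S (Pros1), a cofactor of anticoagulation, rose by 0.90 with v-Src (adjusted p = 0.0253 from limma), a call lost without v-Src array 1 (0.79) or 6 (0.75) or control array 1 (0.82) or 2 (0.81). Of the list, 5 genes were higher with v-Src than with STAT3-C, beside 4.84% of all genes: Hp, Fetub, Cp, F5 and Itih2. SAM called 6 higher. None was called lower with v-Src than with STAT3-C by limma or SAM, beside 6.83% of all genes by limma. At an unadjusted p under 0.05, limma had 4 lower.

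**Figure D5:**
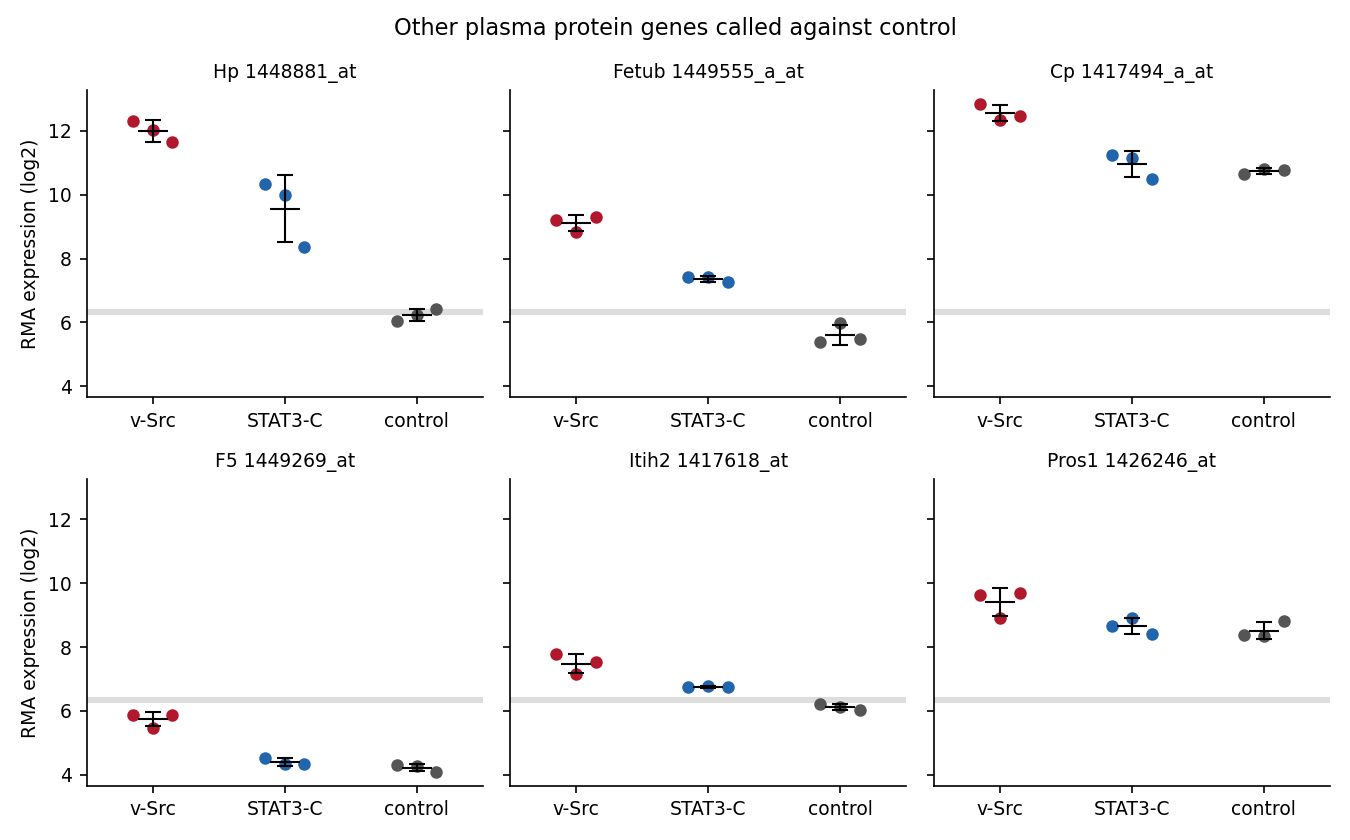
RMA expression (log2, y axis) of the 6 other plasma protein genes called against control, with 1 point an array, the mean and 1 SD for the v-Src, STAT3-C and control lines; the grey band is the range of array medians. In all 6 the v-Src mean is the highest, and Hp reaches 12.32 on a v-Src array.

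Of 19 measured transcription factors of hepatocytes and known regulators of Afp, v-Src cells had 2 higher and 2 lower, beside 9.54% and 10.4% of all genes, and STAT3-C cells had 3 higher and 3 lower, beside 11.9% and 10.3%. Foxa1, a pioneer factor of liver and other endoderm, stood at 5.43, 5.35 and 5.19 with v-Src, at 6.13, 6.29 and 5.78 with STAT3-C, and at 4.79, 5.09 and 4.86 in control cells. It rose by 1.16 with STAT3-C (adjusted p = 0.0007 from limma), and its difference between the transfected lines, -0.74, was lost without STAT3-C array 1 (-0.71, limma adjusted p = 0.0509). Cebpa, which drives hepatocyte genes, fell by 1.49 and 1.66. Cebpb, its partner in the acute phase, rose by 1.43 in v-Src cells and 0.59 in STAT3-C cells; the second call was lost without control array 1 (0.54) or 2 (0.58) or STAT3-C array 1 (0.55), and after quantile normalization (0.46) or median centring (0.54). Tbx3, a regulator of liver bud growth, rose by 1.04 with v-Src and fell by 0.67 with STAT3-C, the fall being lost without STAT3-C array 1 (-0.56). Hhex rose by 0.82 with STAT3-C, and Onecut2 was 0.64 higher with v-Src than with STAT3-C, a call lost without v-Src array 6 (0.58) or STAT3-C array 3 (0.55). Hnf4a, Foxa2 and the repressors of Afp in mouse liver, Zhx2 and Zbtb20, were called in no comparison; Zhx2 averaged 8.53, 8.13 and 8.36 in v-Src, STAT3-C and control cells.

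Markers were read for the cells that normally make these proteins. Of 17 hepatocyte markers, 15 were called in no comparison, where 68.7% of all genes were, and 5 lay above the array median in v-Src cells, 5 in STAT3-C cells and 3 in control cells. Asgr1, a subunit of the asialoglycoprotein receptor, rose by 1.91 and 2.29. The urea cycle gene Ass1 fell by 0.60 and 0.70, the first call being lost without v-Src array 1 (-0.58) or control array 1 (-0.52) or 3 (-0.53). Summed on the linear scale, these markers ranged over 1082 to 1108 in v-Src cells, 1036 to 1130 in STAT3-C cells and 851 to 980 in control cells. Without Asgr1 the sums overlapped between v-Src and control cells (907 to 968 against 806 to 940) and between STAT3-C and control cells (851 to 886 in STAT3-C cells).

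Of 12 markers of yolk sac endoderm, 10 were called in no comparison, beside the same 68.7%. Rhox5, a homeobox gene of the X chromosome active in extraembryonic tissue, stood at 9.97, 10.43 and 10.74 with v-Src, at 12.58, 12.29 and 12.40 with STAT3-C, and at 8.82, 9.05 and 9.92 in control cells. Every STAT3-C array was above every other array, as for Afp. In STAT3-C cells Rhox5 rose by 3.16 (standard error 0.26, limma adjusted p = 7.35e-05) and was lower with v-Src than with STAT3-C (log2 fold change -2.04, adjusted p = 0.000806 from limma). Its rise of 1.11 with v-Src was lost without v-Src array 5 (1.09) or 6 (0.93), without control array 1 (0.89) or 2 (1.01), and with median centring (1.04). Gata6, an endoderm factor, fell by 0.91 in v-Src cells and 0.59 in STAT3-C cells, the second call being lost without control array 3 (-0.57). The summed linear level of the list ranged over 1644 to 2336 in v-Src cells, 5633 to 6747 in STAT3-C cells and 1119 to 1613 in control cells. Rhox5 alone carried this difference: the other 11 genes summed to 631 to 666, 626 to 641 and 643 to 702 in v-Src, STAT3-C and control cells. Its part in the Afp values was not tested.

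Of 8 other genes of hepatoblasts and fetal liver, 5 were called in no comparison, where 68.7% of all genes were. Dlk1 had log2 fold changes of -2.94 and -3.17 against control and Igf2 had -2.43 and -2.03. Against control these were the 2 called lower in either line, beside 10.4% and 10.3% of all genes. None was called higher, beside 9.54% and 11.9%. At an unadjusted p under 0.05, limma put 3 above control in v-Src cells and 3 below it. For STAT3-C cells it put 1 above and 3 below. Epcam was 0.66 higher with v-Src than with STAT3-C. Of 12 fibroblast markers, v-Src cells had 2 higher and 6 lower, beside 9.54% and 10.4% of all genes. STAT3-C cells had 1 higher and 7 lower, beside 11.9% and 10.3%. Thy1 had log2 fold changes of -5.17 and -5.18, while Fn1 rose by 1.13 with v-Src. Of these markers, 8 lay above the array median on all arrays of v-Src cells, 9 of STAT3-C cells and 11 of control cells. Of 6 leukocyte markers, 5 were called in no comparison, where 68.7% of all genes were. The other, Cd68, rose by 1.14 with STAT3-C, where 11.9% of all genes were called higher.

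Genes of proteins that bind or process the members were read last. Of 19 measured, 5 were higher with v-Src and 4 with STAT3-C, beside 9.54% and 11.9% of all genes. None was lower, beside 10.4% and 10.3%, by limma at the threshold or at an unadjusted p under 0.05 (0 genes), or by SAM (0 genes). Bdkrb1, the inducible receptor of kinins, which are cut from kininogen, stood at 8.21, 8.02 and 8.48 with v-Src, at 7.50, 7.48 and 6.83 with STAT3-C, and at 6.17, 5.97 and 5.86 in control cells. In v-Src and STAT3-C cells it rose by 2.24 (standard error 0.14) and by 1.27 (standard error 0.19), and its difference of 0.97 between the transfected lines was lost without v-Src array 1 (0.98, limma adjusted p = 0.0527) or 6 (0.84, limma adjusted p = 0.0582). Bdkrb2, the constitutive receptor, was not called and averaged 5.87, 5.94 and 5.85 in v-Src, STAT3-C and control cells. Abca1, which loads lipid onto apolipoprotein A-I, rose by 2.38 and 1.73, and Scarb1, the receptor for high-density lipoprotein, rose by 0.73 with v-Src only and was 0.98 higher with v-Src than with STAT3-C. Fcgrt, the receptor that rescues albumin from breakdown, rose by 0.94 and 1.04. Of the iron genes, Hfe rose by 0.68 with STAT3-C and Steap3 by 0.59 with v-Src, the second call being lost without v-Src array 6 (0.55) or control array 1 (0.54) or 3 (0.54), and after median centring (0.52), and the transferrin receptor gene Tfrc was not called.

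The genes most like Afp and Kng1 over the 9 arrays were named by Pearson correlation with the probeset of highest mean, among 2051 probesets with a range of at least 2 on the log2 scale. For Afp they were Serpinb1a (0.994), an inhibitor of neutrophil proteases, Tubb2a (0.993), a beta tubulin, Slc9b1 (0.988), Slain1 (0.985) and Pnma5 (0.985). Each was highest with STAT3-C: Serpinb1a averaged 5.23, 9.16 and 5.09 and Slain1 averaged 3.69, 7.95 and 3.70 in v-Src, STAT3-C and control cells. For Kng1 they were Pi15 (0.988), Cp (0.987, by probeset 1417495_x_at), Col18a1 (0.986), Parvb (0.986) and the zinc transporter gene Slc39a14 (0.985). Pi15 averaged 9.76, 6.18 and 5.13 in the same order of lines. The points are 3 lines of 3 passages, so any gene that differs by line in the same way scores high.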

How the data were processed

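The authors summarized 9 Affymetrix Mouse Genome arrays by Robust Multichip Average (RMA) and deposited log2 values. Per the methods, control arrays entered RMA in 2 separate runs, with the arrays of either transfected line. Which grouping the control columns come from is not given in the sources used here, and if the transfected lines were normalized in separate runs, run and line cannot be told apart between them. After 64 control probesets were left out, 45037 of 45101 were fitted in R 4.3.3 with limma 3.58.1 (lmFit, eBayes) on the 6 arrays of each comparison, with Benjamini-Hochberg adjustment over all of them. Precision is limited by the number of arrays: 3 against 3 allow an exact permutation p of 0.1 at the least. Of the probesets, 34945 carried 1 gene symbol, 932 several and 9160 none; 34741 matched a GRCm38.p6 gene table by gene number. In lists, the probeset with the highest mean stood for a gene.

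The members and lists were chosen with earlier results of these data known. Named were all member probesets, up to 4 called genes a list and comparison with the largest change, called neighbours, and the 5 genes most like Afp and Kng1; other genes named beside them (Afm, Ankrd17, Ahsg, Hrg, Adipoq, Pros1, Steap3, Hnf4a, Foxa2, Zhx2, Zbtb20, Bdkrb2 and Tfrc) were chosen after their values were seen. So were the letters of the HNF1 motif, TATAAA, and which promoters to print: Fetub, first picked with Afp and Alb, gave way to Fga and Fgb. The fit was tested on simulated data. Alternatives were all 9 arrays in 1 fit, quantile normalization, median centring, a filter on level, other thresholds, leaving out each array, and eBayes with trend and robust. Further ones were SAM (the kind of test the study used, run here over 20 groupings at a q under 5%), the replicate block and the mean of a gene's probesets. Python 3.11.15 with matplotlib 3.10.9 drew the figures.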

Additional observations from a re-analysis of the deposited data

Results flagged for a closer look

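The values below were picked out because the lines differed by limma in v-Src against STAT3-C, given as log2 fold changes. They are 29 probesets. Of these, 5 are of Afp and Kng1, whose differences had chosen them, so their calls are not a test. Afp was lower with v-Src than with STAT3-C, at -5.10 (1416645_a_at), -3.81 (1416646_at) and -4.84 (1436879_x_at), and Kng1 was higher, at 3.76 (1416676_at) and 1.00 (1426045_at).

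Among other plasma protein genes, Hp was 2.44, Fetub 1.74, Cp 1.58, F5 1.34 and Itih2 0.73. Among regulators, Tbx3 was 1.71, Cebpb 0.85, Onecut2 0.64 and Foxa1 -0.74. Among partners of the member proteins, Scarb1 was 0.98 and Bdkrb1 0.97. Stat3 was 1.29 (1426587_a_at). Among neighbours, Albfm1 was -1.06, Gm9958 1.00, Rfc4 -1.73, Rgs3 1.09 and B4galt6 0.70. Among markers, Rhox5 was -2.04, Epcam 0.66, Cd68 -1.17, Pdgfrb -3.13, Dcn 1.91, Col3a1 -1.25 and Fn1 0.83. Calls were lost in one or more fits without a single array for Col3a1 (largest adjusted p = 0.087 from limma, log2 fold change -1.25 without STAT3-C array 1, and also without v-Src array 1 or STAT3-C array 2 or 3) and B4galt6 (largest adjusted p = 0.0721 from limma, 0.65 without v-Src array 6, and also without v-Src array 1 or STAT3-C array 1 or 3). Those of Hp, Itih2, Bdkrb1, Foxa1 and Onecut2 are given above.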

How the results depend on the processing

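No log2 fold change called for a member or a gene named from the lists and neighbours turned its sign under the alternatives run; those of genes only counted were not followed. Of 60 member results (20 probesets in 3 comparisons) under 873 alternatives, 56 kept their side of the threshold or, for Afp and Kng1, which have no test and were compared by size, moved by less than the spread, 3 alternatives ended a call (all of Alb with v-Src) and 3 made one (Apoa1 once and Fgg in 2 comparisons, with no fold threshold). Of 189 results of other genes under 2856 alternatives, 130 did not change, 102 alternatives ended a call and 33 made one. Member probesets lower with v-Src than in control cells, 1 as reported, were 0 with a fold of at least 2, and 0 to 1 when an array was left out. With only probesets above the median level the count was 0 because Alb was filtered out, so its call was not tested there. Member probesets higher with STAT3-C than in control cells, 4 as reported, were 8 with no fold threshold. They were 3 at the lowest among the other settings, and 3 to 4 when an array was left out. Member probesets higher with v-Src than with STAT3-C, 2 as reported, were 1 with a fold of at least 2 or an adjusted p under 0.01, and 1 to 2 when an array was left out (1 of the 2 Kng1 probesets without STAT3-C array 1 or 2). The STAT motif was found in 2 member promoters, its form with a spacer of 4 in 1, and TATAAA, added after seeing the data, in 1. Counts by gene were the same when the probesets of each gene were averaged. Quantile normalization or median centring left the member counts within 1.5 times.

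Replicate numbers 1, 2 and 3 are shared by STAT3-C and control cells. Same-numbered arrays deviated together at -0.09, 0.06 and 0.04 (Pearson), and arrays of different numbers at -0.11 to 0.07. No shared deviation is seen, but this cannot tell whether same-numbered passages were handled together. With the replicate block, 4 member probesets were higher with STAT3-C and 0 lower, and over all probesets 4447 were higher and 3964 lower, against 4358 and 3865 without it. Levels near the lower quartile of the arrays limit what a fold change can show for most members.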
